A study of Homo sapiens with 9 samples.

Results

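The genes described here are 10 factors of fat cell differentiation and of lipid droplet metabolism, taken by name from the 58735 genes of the OVCAR4 count table. They were the nuclear receptor PPARG, the C/EBP transcription factors CEBPA, CEBPB and CEBPD, the droplet coat proteins PLIN2 and PLIN3, the triglyceride lipase PNPLA2, and the lipid synthesis enzymes LPIN1, DGAT1 and DGAT2. All 10 were found in the table, and 9 passed the filter on low counts and were tested. PPARG did not pass.

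OVCAR4 is an established human ovarian serous adenocarcinoma line, and the study asked what loss of MPZL3, a predicted cell adhesion molecule, does to it. Cells received pLKO.1 lentivirus coding for a scramble shRNA (scr control) or for either of 2 shRNAs against MPZL3 (shMPZL3 #1 and shMPZL3 #2). All 3 groups went through viral transduction and puromycin selection for 3 days. Poly-A RNA from 3 biological replicates of each group was sequenced, giving 9 libraries. All libraries came from the same cancer line kept in culture, with no fat tissue and no induction of differentiation, and the scr control shared the virus and the drug with both knockdown groups.

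In fat cell development CEBPB and CEBPD act early and help to switch on PPARG and CEBPA, which then hold the mature program in place. Other cells use part of the same set without becoming fat cells. The endoplasmic reticulum builds triglyceride through the phosphatidate phosphatase LPIN1 and the acyltransferases DGAT1 and DGAT2, stores it in droplets coated by perilipins such as PLIN2 and PLIN3, and releases it again through PNPLA2, also called ATGL. MPZL3 has itself been linked to lipid metabolism, so the question put to these libraries was whether the set moved with its knockdown.

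The libraries held 15040102 to 27835841 counts, and mitochondrial genes took 7.16% to 8.65% of them. Of 8 ovarian carcinoma markers, 7 were tested. KRT7 and PAX8 held 422350 and 47194 counts over the 9 libraries, whereas MSLN held 571, and WT1 held 63 and was not tested. The adipocyte markers were near absent. Of 10, 7 had at most 10 counts over all 9 libraries, ADIPOQ, FABP4 and RETN had none, and LIPE alone was tested. The targeted gene fell in both knockdown groups. MPZL3 had 536, 611 and 587 normalized counts in the scr control, 119, 143 and 123 with shMPZL3 #1 and 284, 380 and 271 with shMPZL3 #2. Normalized counts are counts scaled to the same effective library size. The fold changes were -2.17 ± 0.16 (log2, SE) with shMPZL3 #1 and -0.89 ± 0.15 with shMPZL3 #2 (edgeR adjusted p = 3.73e-07 and 0.000562), and the remaining level was higher with shMPZL3 #2 than with #1 by 1.28 ± 0.16 (edgeR adjusted p = 5.72e-05).

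RefSeq promoters (GRCh38.p14, 250 bases before to 50 after a start) were matched by symbol for 7 of the 10 members. None was listed for CEBPD, DGAT1 and DGAT2. The first listed promoter is shown for PLIN2, PNPLA2 and LPIN1, the members with a promoter that passed the test in at least 1 comparison. CEBPD and DGAT2 also passed in at least 1 comparison. Capitals mark matches on either strand to the E-box CACGTG, the nuclear receptor core AGGTCA, the TATA motif TATAAA and the GC box GGGCGG, and none of the marked stretches overlap.
PLIN2, chr9:19127443-19127742, minus strand: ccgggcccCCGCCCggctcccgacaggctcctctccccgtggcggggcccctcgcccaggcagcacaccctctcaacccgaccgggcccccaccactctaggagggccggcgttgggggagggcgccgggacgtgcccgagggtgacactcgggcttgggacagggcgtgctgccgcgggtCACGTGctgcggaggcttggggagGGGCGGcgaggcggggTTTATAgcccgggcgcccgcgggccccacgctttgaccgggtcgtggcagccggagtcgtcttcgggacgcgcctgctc
PNPLA2, chr11:818664-818963, plus strand: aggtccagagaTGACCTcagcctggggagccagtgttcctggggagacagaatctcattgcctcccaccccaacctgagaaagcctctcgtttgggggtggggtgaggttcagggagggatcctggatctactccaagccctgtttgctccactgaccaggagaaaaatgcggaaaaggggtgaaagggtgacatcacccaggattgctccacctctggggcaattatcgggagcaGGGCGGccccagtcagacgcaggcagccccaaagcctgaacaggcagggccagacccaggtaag
LPIN1, chr2:11746382-11746681, plus strand: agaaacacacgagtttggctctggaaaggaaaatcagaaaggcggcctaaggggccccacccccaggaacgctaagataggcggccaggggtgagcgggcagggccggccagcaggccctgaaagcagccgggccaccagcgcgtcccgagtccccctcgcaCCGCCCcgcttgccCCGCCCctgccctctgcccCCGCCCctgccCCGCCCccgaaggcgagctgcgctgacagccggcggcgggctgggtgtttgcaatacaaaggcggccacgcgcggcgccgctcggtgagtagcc

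The PLIN2 promoter held an E-box at position -69, GC boxes at positions -242 and -45 and a TATA motif at position -29, counted from the start. The TATA motif and the GC box at -242 lay on the strand opposite to the printed one. This promoter was the one with an E-box among the 15 listed for the members, some of which overlap each other. Of all 35116 promoters of the same length, 7.26% held an E-box. The PNPLA2 promoter carried AGGTCA on the minus strand at position -239, a motif present in 13.8% of all promoters. The LPIN1 promoter held 4 GC boxes, and at least 1 occurred in 45% of all promoters. TATAAA was found in 11.5% of all promoters. Also searched on both strands were TTGCNNAA, the core bound by C/EBP factors (1 of the 15 promoters, for PPARG, and 10.5% of all), the cyclic AMP element TGACGTCA (0 of the 15 and 1.85% of all) and CCAAT (4 of the 15 and 34.6% of all). These matches describe the letters of the windows.

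In the grouped comparison, which set the 6 knockdown libraries against the 3 scr controls as the study did, CEBPD and PLIN2 rose and no member fell. Over all 16928 genes tested, 9.36% passed as higher and 6.4% as lower at an adjusted p under 0.05, so 2 of 9 higher and 0 of 9 lower stand beside those shares. By DESeq2 3 members were higher and 0 lower, and at an unadjusted edgeR p under 0.05 there were 3 and 1. The median log2 fold change of the 9 members was 0.01 beside 0.02 over all genes tested. With shMPZL3 #1, CEBPD, PLIN2 and PNPLA2 rose and 0 fell by either tool, with 1 lower, DGAT2, at an unadjusted edgeR p under 0.05 (16.8% of all genes higher, 15.3% lower; median of the members -0.10, of all genes 0.01). With shMPZL3 #2, CEBPD and PLIN2 rose and LPIN1 fell (9.36% of all genes higher, 5.8% lower; median of the members 0.23, of all genes 0.0034). The comparisons with each shRNA share the 3 scr libraries and are not independent of each other. In the direct comparison of the shRNAs, CEBPD and DGAT2 were higher and LPIN1 was lower with shMPZL3 #2 than with #1 (7.56% of all genes higher, 7.56% lower; median of the members 0.13, of all genes 0.01). PLIN2 was the member for which every knockdown library lay above every control library, and 11.8% of all genes did so in that direction; no member lay below every control, and 11% of all genes did. Since whole cultures were sequenced, fewer cells with a transcript and less of it in each cell cannot be told apart.

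**Figure D1:**
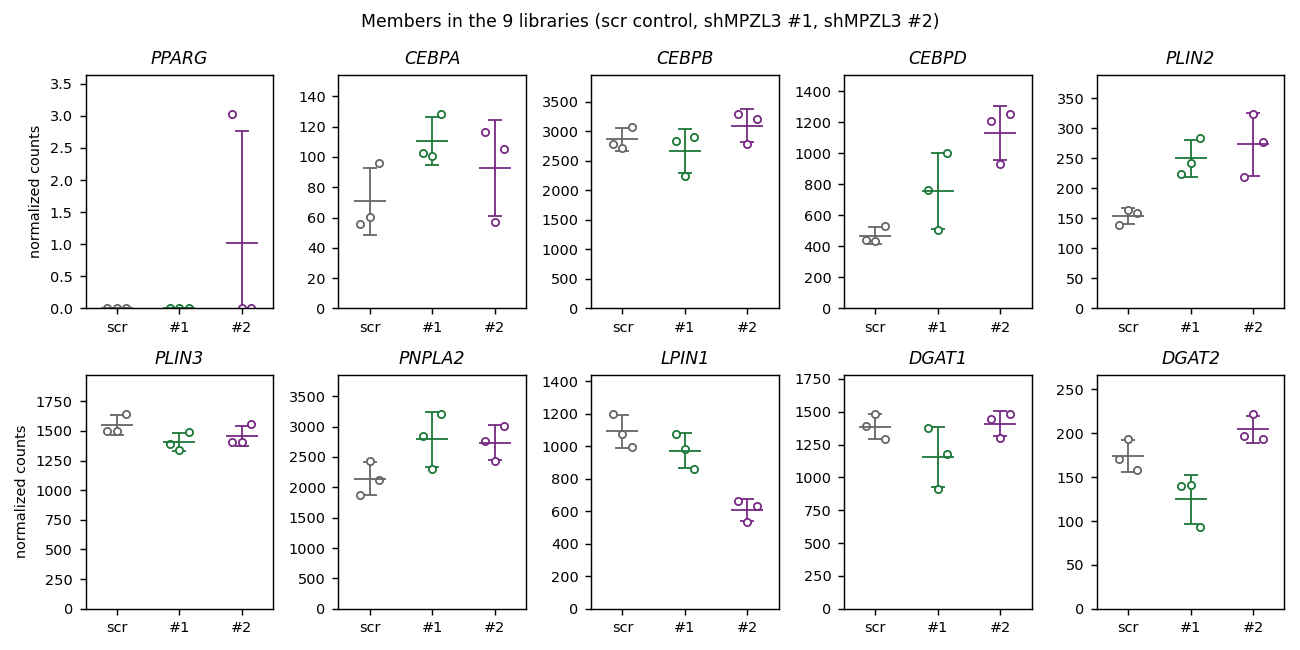
Normalized counts (y axis, from 0) of each member in the 9 libraries, by group (x axis: scr control, shMPZL3 #1, shMPZL3 #2). Open points are libraries, and horizontal marks with bars are the mean ± SD of 3 libraries. The 6 knockdown libraries of PLIN2 lie between 220 and 325, above the controls at 138 to 163, and LPIN1 with shMPZL3 #2 lies between 534 and 661, below the controls at 995 to 1199.

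The master regulator of fat cell formation was all but missing. PPARG (ENSG00000132170, chromosome 3, 12287368 to 12434356 on hg38, plus strand) had 0 counts in 8 of the 9 libraries and 3 counts in replicate 1 of shMPZL3 #2 (exact 95% Poisson interval 0.619 to 8.77, for counting error). A count of 0 allows up to 3 counts, which is 0.110 to 0.201 CPM in these libraries, CPM being the usual count scaled by effective library size. No fold change was computed, and a difference in PPARG between groups was not detectable at this depth. Both relatives of PPARG were measured. PPARD, the widely expressed form, passed as higher in the grouped comparison (0.34 ± 0.11, edgeR adjusted p = 0.0478) and in 6 of 16 alternatives as well (edgeR adjusted p from 0.0148 to 0.164), and PPARA did not pass (0.24 ± 0.13, edgeR adjusted p = 0.223). Against the scr control, PPARD passed in 15 of 15 alternatives with shMPZL3 #1 and in 0 of 15 with #2.

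CEBPA (ENSG00000245848, chromosome 19, 33299934 to 33302564, minus strand), which maintains the mature fat cell program, was low. It had 55.8, 60.4 and 96.2 normalized counts in the scr control, 103, 100 and 129 with shMPZL3 #1, and 116, 56.8 and 105 with shMPZL3 #2. The shMPZL3 #1 libraries lay above the controls, and replicate 2 of shMPZL3 #2 lay among them. The log2 fold changes of 0.65 ± 0.28 with shMPZL3 #1 and 0.40 ± 0.28 with shMPZL3 #2 did not pass (edgeR adjusted p = 0.083 and 0.362), nor did the grouped 0.53 ± 0.27 (edgeR adjusted p = 0.193; exact two-sided permutation test of log2 CPM, p = 0.107). Without replicate 3 of the scr control, CEBPA with shMPZL3 #1 passed at 0.92 (edgeR adjusted p = 0.0351), and over its 15 alternatives the adjusted p ran from 0.0337 to 0.257. CEBPA shares 659 exon bases (25%) with the antisense gene AC008738.3 and 482 (18.3%) with AC008738.5, which both held 0 counts. Whether reads from these stretches were left uncounted, which would lower its level, was not tested.

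CEBPB (ENSG00000172216, chromosome 20, 50190734 to 50192689, plus strand), an early factor of the program and an inflammation-responsive one elsewhere, was the highest member per length in the scr control and passed in no comparison. It had 2792, 2719 and 3076 normalized counts in the scr control, 2842, 2237 and 2911 with shMPZL3 #1, and 3301, 2784 and 3203 with shMPZL3 #2. All 3 groups overlapped. The grouped log2 fold change was 0.01 ± 0.12 (edgeR adjusted p = 0.97), and its values with shMPZL3 #1 and #2 were -0.10 ± 0.11 and 0.11 ± 0.11 (edgeR adjusted p = 0.521 and 0.54). CEBPB-AS1, an antisense gene, shares 231 of its exon bases and held 335 counts beside 25921 for CEBPB in all libraries, and the libraries do not record strand.

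CEBPD (ENSG00000221869, chromosome 8, 47736909 to 47739086, minus strand), the partner of CEBPB in the early phase, showed the largest grouped change of the members. It had 444, 433 and 532 normalized counts in the scr control. With shMPZL3 #1 it had 764, 507 and 1001, and with shMPZL3 #2 it had 1207, 928 and 1256. Replicate 2 of shMPZL3 #1 lay within the range of the controls and the other knockdown libraries lay above it. CEBPD was 2.01-fold higher in the grouped knockdown (log2 1.01 ± 0.23, edgeR adjusted p = 0.0129; exact two-sided permutation p = 0.0357). With shMPZL3 #1 it was 1.62-fold higher (log2 0.69 ± 0.19, edgeR adjusted p = 0.0101) and with shMPZL3 #2 2.41-fold higher (log2 1.27 ± 0.19, edgeR adjusted p = 0.000208). The rise was larger with shMPZL3 #2, the shRNA that left more MPZL3, by 0.58 ± 0.18 (edgeR adjusted p = 0.0412). That difference was near the threshold: it passed in 7 of 15 alternatives, with adjusted p from 0.000168 to 0.157. The grouped call was lost without scr replicate 1 or scr replicate 2 (edgeR adjusted p = 0.0833 and 0.069, over 16 alternatives from 1.12e-07 to 0.0833), and that with shMPZL3 #1 was lost without its own replicate 3 (0.44, edgeR adjusted p = 0.0812, over 15 alternatives from 2.27e-06 to 0.0812).

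PLIN2 (ENSG00000147872, chromosome 9, 19108375 to 19149290, minus strand), the droplet coat protein of most cell types other than fat cells, rose with both shRNAs. It had 138, 163 and 159 normalized counts in the scr control, 224, 241 and 284 with shMPZL3 #1, and 220, 325 and 277 with shMPZL3 #2. Neither knockdown group overlapped the controls, and the knockdown groups overlapped each other. The level was 1.62-fold higher with shMPZL3 #1 (log2 0.70 ± 0.17, edgeR adjusted p = 0.00551) and 1.78-fold higher with shMPZL3 #2 (log2 0.83 ± 0.17, edgeR adjusted p = 0.00352). Grouped, it was 1.70-fold higher (log2 0.77 ± 0.16, edgeR adjusted p = 0.00846; exact two-sided permutation p = 0.0119, the smallest that 6 against 3 libraries can give). The shRNAs differed by 0.13 ± 0.17, which did not pass (edgeR adjusted p = 0.65). Both single-shRNA calls held in all 15 alternatives, and the grouped one was lost without scr replicate 1 (0.69, edgeR adjusted p = 0.0666, over 16 alternatives from 0.000365 to 0.0666).

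PLIN3 (ENSG00000105355, chromosome 19, 4838341 to 4867768, minus strand), also called TIP47, which is found in the cytosol and on newly formed droplets, did not pass in any comparison. It had 1501, 1501 and 1644 normalized counts in the scr control, 1393, 1343 and 1490 with shMPZL3 #1, and 1410, 1407 and 1556 with shMPZL3 #2. The libraries with shMPZL3 #1 all lay just below the controls, and those with shMPZL3 #2 overlapped them. The log2 fold changes were -0.14 ± 0.10 and -0.09 ± 0.10 (edgeR adjusted p = 0.298 and 0.588).

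PNPLA2 (ENSG00000177666, chromosome 11, 818902 to 825573, plus strand), which cleaves the first fatty acid from stored triglyceride, was near the threshold with either shRNA. It had 1881, 2431 and 2116 normalized counts in the scr control, 2851, 2309 and 3211 with shMPZL3 #1, and 2763, 2431 and 3015 with shMPZL3 #2. Replicate 2 of each knockdown group was the lowest of its group and lay near the highest control. The fold was nearly the same with each shRNA, 1.30 with #1 (log2 0.38 ± 0.13, edgeR adjusted p = 0.0316) and 1.28 with #2 (log2 0.35 ± 0.13, edgeR adjusted p = 0.074), and the difference between them was -0.03 ± 0.13 (edgeR adjusted p = 0.914). Only the first passed. The grouped value of 0.37 ± 0.12 missed the threshold (edgeR adjusted p = 0.0581; exact two-sided permutation p = 0.0476) and passed in 7 of 16 alternatives, DESeq2 among them (DESeq2 adjusted p = 0.0378, over the alternatives from 0.0226 to 0.295). The call with shMPZL3 #1 was lost without scr replicate 1, scr replicate 3, or replicate 1 or 3 of that shRNA (edgeR adjusted p = 0.163, 0.0956, 0.0546 and 0.158, over 15 alternatives from 0.00567 to 0.163).

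LPIN1 (ENSG00000134324, chromosome 2, 11677595 to 11827409, plus strand) makes the diacylglycerol that DGAT enzymes use and can also act as a coactivator of transcription. It fell with shMPZL3 #2. Normalized counts were 1199, 1078 and 995 in the scr control, 1075, 981 and 863 with shMPZL3 #1, and 661, 534 and 633 with shMPZL3 #2. The last 3 libraries lay below the other 6. The log2 fold change was -0.84 ± 0.12 with shMPZL3 #2 (0.56-fold, edgeR adjusted p = 0.000149) and -0.17 ± 0.12 with shMPZL3 #1 (edgeR adjusted p = 0.31). The difference of -0.67 ± 0.12 between the shRNAs passed (edgeR adjusted p = 0.0012), and so did the fall with #2 in all 15 alternatives. Grouping the shRNAs gave -0.46 ± 0.19, which did not pass (edgeR adjusted p = 0.108).

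DGAT1 (ENSG00000185000, chromosome 8, 144314584 to 144326910, minus strand) and DGAT2 (ENSG00000062282, chromosome 11, 75759512 to 75801535, plus strand) catalyse the last step of triglyceride synthesis and are unrelated in sequence. DGAT1 had 1391, 1479 and 1291 normalized counts in the scr control, 1375, 915 and 1176 with shMPZL3 #1, and 1441, 1300 and 1484 with shMPZL3 #2. All groups overlapped, and its log2 fold changes of -0.26 ± 0.13 and 0.02 ± 0.13 did not pass (edgeR adjusted p = 0.124 and 0.932). DGAT1 shares 139 exon bases with HSF1, on the opposite strand, which held 26152 counts beside 11898 for DGAT1, and the strand of reads from that stretch was not recorded.

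DGAT2 stood on opposite sides of the scr control with the 2 shRNAs. It had 170, 193 and 158 normalized counts in the scr control, 140, 141 and 92.7 with shMPZL3 #1, and 197, 222 and 194 with shMPZL3 #2. The libraries with shMPZL3 #1 lay below the controls and those with shMPZL3 #2 lay just above them. Neither change passed against the scr control (-0.48 ± 0.19 and 0.23 ± 0.18, edgeR adjusted p = 0.0565 and 0.437), whereas the difference between the shRNAs did (0.71 ± 0.18, 1.64-fold, edgeR adjusted p = 0.0147). It was lost without replicate 3 of shMPZL3 #1 (0.54, edgeR adjusted p = 0.069, over 15 alternatives from 0.0029 to 0.069).

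**Figure D2:**
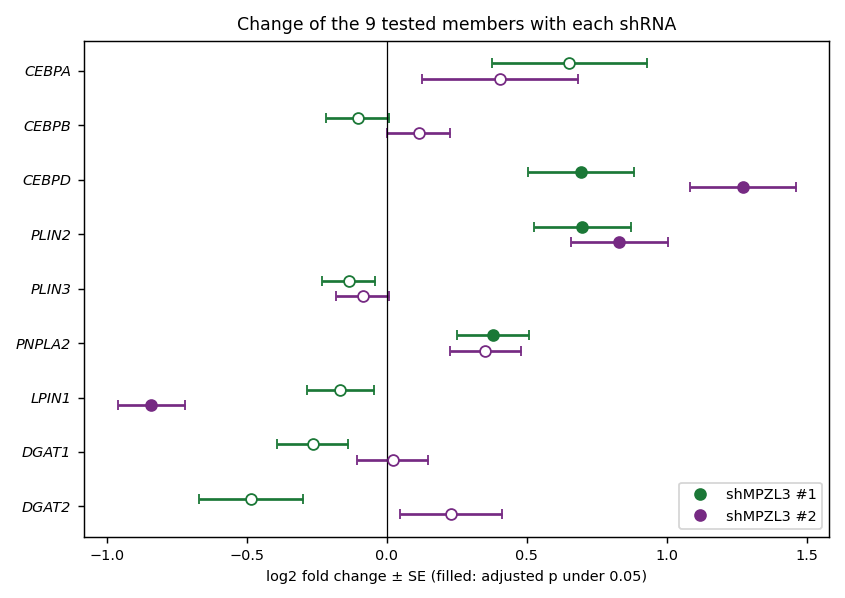
Log2 fold change ± SE (x axis) of the 9 tested members (y axis) with shMPZL3 #1 (green) and shMPZL3 #2 (purple) against the scr control, 3 libraries a group. Filled points passed at an adjusted p under 0.05. CEBPD and PLIN2 lie to the right with both shRNAs, LPIN1 lies at -0.84 with shMPZL3 #2 and at -0.17 with #1, and DGAT2 lies on opposite sides of 0.

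Levels per length, as CPM per kilobase of exon, set the members beside each other. The length was that of all annotated exons of a gene merged, from 1956 bases for CEBPB to 11861 for LPIN1. Which transcripts the cells used was not tested, so the order of the genes rests on these lengths. In the scr control CEBPB led at 71.3 ± 4.7 (SD, n = 3), followed by PNPLA2 at 27.1 ± 3.5, PLIN3 at 26.8 ± 1.4, DGAT1 at 16.3 ± 1.1, CEBPD at 10.5 ± 1.2 and LPIN1 at 4.48 ± 0.42. Then came PLIN2 at 1.47 ± 0.13, CEBPA at 1.31 ± 0.41 and DGAT2 at 1.07 ± 0.11, with PPARG at 0. The ranges of PNPLA2 and PLIN3 overlapped, as did those of PLIN2 and CEBPA and of CEBPA and DGAT2, and the other neighbours did not overlap. With shMPZL3 #2 CEBPD stood at 25.3 and PLIN3 at 25.2.

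Ratios of these levels within a library do not depend on the scaling between libraries. Their size rests on the lengths used, and they are given as descriptions. CEBPD stood at 0.143 to 0.155 of CEBPB in the scr control, 0.203 to 0.309 with shMPZL3 #1 and 0.299 to 0.352 with shMPZL3 #2, a ratio chosen after its values were seen. The CEBPD/CEBPA ratio was 6.68 to 9.61 in the scr control, 6.10 to 9.40 with shMPZL3 #1 and 12.5 to 19.7 with shMPZL3 #2. CEBPB exceeded CEBPA 43.0 to 67.3-fold in the scr control, 30.0 to 37.3-fold with shMPZL3 #1 and 38.1 to 65.9-fold with shMPZL3 #2. The CEBPD/CEBPB ratio lay above the controls in both knockdown groups, but it was chosen on these values, so this is no test of it. In replicate 2 of shMPZL3 #1, CEBPD was within the control range (507 normalized counts), and CEBPB was at its lowest of all libraries (2237).

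Among the coat proteins PLIN3 remained the more abundant, and PLIN2 stood at 0.0509 to 0.0601 of it in the scr control, 0.0890 to 0.105 with shMPZL3 #1 and 0.0862 to 0.128 with shMPZL3 #2. DGAT1 exceeded DGAT2 14.6 to 15.6-fold in the scr control, 12.4 to 24.3-fold with shMPZL3 #1 and 11.2 to 14.6-fold with shMPZL3 #2. The PLIN2 share thus lay above the controls in every knockdown library, while the DGAT ratios with shMPZL3 #1 spread around the control range.

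**Figure D3:**
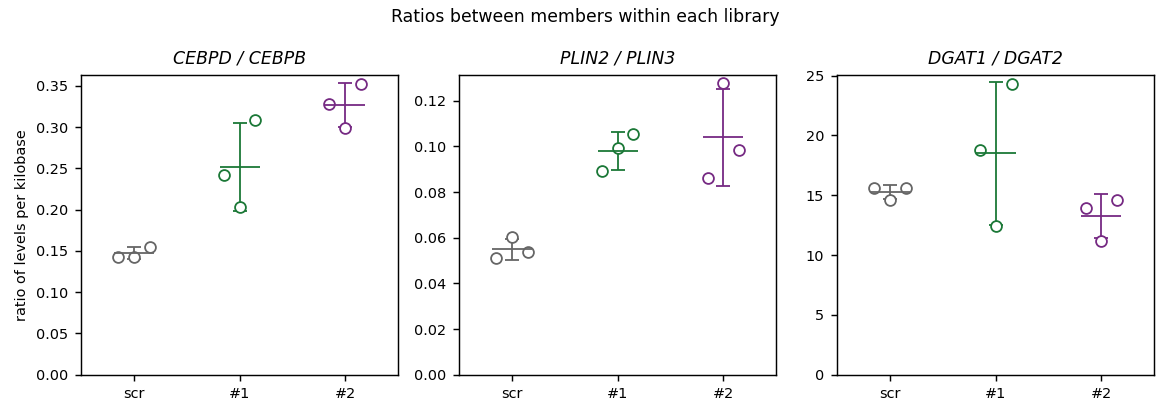
Ratio of levels per kilobase within each library (y axes, from 0) for CEBPD over CEBPB, PLIN2 over PLIN3 and DGAT1 over DGAT2, by group (x axis). Open points are libraries, and marks with bars are the mean ± SD of 3 libraries. In the first and second panels every knockdown point lies above the controls, which reach 0.155 and 0.0601. The ratio of the first panel was chosen after its values were seen.

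The genes around the members were described through 6 lists, which together hold 85 genes, of which 65 were tested. In the grouped comparison 9 of the 65 rose and 7 fell, beside 9.36% and 6.4% of all genes, and their median log2 fold change was 0.00045. DDIT3, PPARGC1A, TMEM159, GPAM and MGLL passed in all 16 alternatives, whereas the other 11 lost their call without scr replicate 1. Of 19 tested regulators of fat cell formation, 5 rose and 2 fell. The stress-induced C/EBP relative DDIT3 (CHOP), which inhibits other C/EBP factors by dimerising with them, rose by 0.78 ± 0.14 (edgeR adjusted p = 0.00331). Also higher were the Krüppel-like factors KLF4 (0.83 ± 0.27) and KLF6 (0.60 ± 0.14), the signal transducer STAT5A (0.47 ± 0.13) and PPARD. KLF4 and PPARD passed in 15 of 15 alternatives with shMPZL3 #1 and in 0 of 15 with #2. For KLF6 these counts were 14 and 15, and for STAT5A 12 and 11. The mitochondrial coactivator PPARGC1A fell by 0.88 on the log2 scale (SE 0.17, edgeR adjusted p = 0.00456), as did the PPAR-binding Mediator subunit MED1 by 0.42 (SE 0.12, edgeR adjusted p = 0.0332). PPARGC1A passed in all 15 alternatives with each shRNA. MED1 passed in 15 of 15 with shMPZL3 #1 and in 2 of 15 with #2. Of 8 tested genes on the list of inhibitors of fat cell formation, which leaves out DDIT3, 0 passed by edgeR or DESeq2. At an unadjusted edgeR p under 0.05, 2 were higher and 1 lower. Values of the list included those of the pseudokinase TRIB3 (0.77 ± 0.35) and the Krüppel-like factor KLF2 (0.53 ± 0.39), whose grouped edgeR adjusted p-values were 0.144 and 0.382. Taken by shRNA, 2 of the 8 were higher and 2 lower with shMPZL3 #1, beside 16.8% and 15.3% of all genes. With #2, 1 was higher and 0 lower by edgeR and DESeq2 (1 lower at an unadjusted edgeR p under 0.05), beside 9.36% and 5.8% by edgeR. The gene higher with #2 was TRIB3, at 1.29 ± 0.13 (edgeR adjusted p = 7.53e-06), which passed in all 15 alternatives and stood at -0.05 ± 0.13 with #1 (edgeR adjusted p = 0.825). KLF2 rose with #1 (0.97 ± 0.32, edgeR adjusted p = 0.0298) and passed in 12 of 15 alternatives.

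Genes that PPAR factors are known to switch on were tested for 6 of 12. Of these, 0 rose and 1 fell by edgeR and by DESeq2, beside 9.36% and 6.4% of all genes by edgeR. At an unadjusted edgeR p under 0.05, 1 was higher and 1 lower. The gene that fell was CPT1A, which brings fatty acids into mitochondria (-0.40 ± 0.10, edgeR adjusted p = 0.0231). CPT1A passed in 15 of 15 alternatives with shMPZL3 #1 and in 4 of 15 with #2. The largest values were those of ANGPTL4 at 0.65 ± 0.25, LPL at -0.61 ± 0.55 and PDK4 at 0.45 ± 0.34 (edgeR adjusted p = 0.0946, 0.481 and 0.403). ANGPTL4, an inhibitor of LPL, was the PPAR target that rose with shMPZL3 #2 (0.85 ± 0.26, edgeR adjusted p = 0.0346), and 10 of 15 alternatives passed, with adjusted p from 0.0194 to 0.159. That call was lost without scr replicate 1 or 2 or any of the 3 shMPZL3 #2 libraries (edgeR adjusted p = 0.125, 0.159, 0.0932, 0.0579 and 0.0758). LPL, which releases fatty acids from lipoproteins, differed between the shRNAs by 2.31 ± 0.31 (edgeR adjusted p = 0.000116). It had 79.8, 95.3 and 75.6 normalized counts in the scr control, 26.5, 8.94 and 18.9 with shMPZL3 #1, and 95.2, 85.2 and 93.2 with shMPZL3 #2, and fell with #1 (-2.19 ± 0.31, edgeR adjusted p = 8.23e-05).

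Of 10 tested genes of droplet coats and droplet formation other than PLIN2 and PLIN3, 1 rose and 1 fell, beside 9.36% and 6.4% of all genes. TMEM159, the partner of seipin at the sites where droplets arise, had 194 to 273 normalized counts in the scr control, 434 to 612 with shMPZL3 #1 and 352 to 487 with shMPZL3 #2 (grouped 0.96 ± 0.17, edgeR adjusted p = 0.00368). METTL7B, a methyltransferase found on droplets, fell by 1.11 (SE 0.27, edgeR adjusted p = 0.0163), and its relative METTL7A stood at -0.85 ± 0.38 (edgeR adjusted p = 0.144). METTL7B passed in 15 of 15 alternatives with shMPZL3 #1 and in 4 of 15 with #2. METTL7A fell with shMPZL3 #2 (-1.35 ± 0.37, edgeR adjusted p = 0.022) and passed in 13 of 15 alternatives, the exceptions being without scr replicate 1 or shMPZL3 #2 replicate 3 (edgeR adjusted p = 0.128 and 0.111). Of the perilipins of fat and oxidative tissue, PLIN1 and PLIN5 held 10 and 47 counts in all 9 libraries and were not tested. PLIN4 held 247 counts and was tested. Its mean normalized counts were 24.4 (scr), 41.7 (#1) and 14.8 (#2), and its grouped change did not pass (0.20 ± 0.62, edgeR adjusted p = 0.861).

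Triglyceride and sterol ester synthesis gave 1 gene higher and 3 lower of 15 tested, beside 9.36% and 6.4% of all genes. DESeq2 also gave 1 and 3, and at an unadjusted edgeR p under 0.05 there were 4 higher and 4 lower. With shMPZL3 #1, 4 were higher and 4 lower, beside 16.8% and 15.3% of all genes. With #2, 2 were higher and 1 lower, beside 9.36% and 5.8%. GPAM, the mitochondrial enzyme of the first acylation step, had 899 to 943 normalized counts in the scr control, 480 to 587 with shMPZL3 #1 and 520 to 605 with shMPZL3 #2 (grouped -0.73 ± 0.10, edgeR adjusted p = 0.000713). The acyltransferase AGPAT5 (-0.49 ± 0.14) and the cholesterol acyltransferase SOAT1 (-0.34 ± 0.10) also fell, and the fatty acid activating enzyme ACSL5 rose (0.85 ± 0.23). With shMPZL3 #1, AGPAT5, SOAT1 and ACSL5 each passed in 15 of 15 alternatives, and with #2 in 4, 5 and 10 of 15. The relatives of LPIN1 did not pass in the grouped comparison, with LPIN2 at -0.12 ± 0.12 and LPIN3 at 0.26 ± 0.13 (edgeR adjusted p = 0.519 and 0.207).

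Of 8 tested lipolysis genes 2 rose and 0 fell, beside 9.36% and 6.4% of all genes. By DESeq2 or at an unadjusted edgeR p under 0.05, 0 were lower. MGLL, which removes the last fatty acid after PNPLA2 and LIPE, had 896 to 1448 normalized counts in the scr control, 2277 to 2921 with shMPZL3 #1 and 2494 to 2531 with shMPZL3 #2, a grouped rise of 1.09 ± 0.14 (2.13-fold, edgeR adjusted p = 0.000529). The lysosomal lipase LIPA rose by 0.67 ± 0.17 (edgeR adjusted p = 0.0202). G0S2, a protein inhibitor of PNPLA2, was scarce, with 1, 0 and 0 counts in the scr control, 0, 4 and 0 with shMPZL3 #1, and 14, 10 and 22 with shMPZL3 #2, and passed with #2 (edgeR adjusted p = 0.0111). That call was lost without scr replicate 2 or 3 (edgeR adjusted p = 0.0738 and 0.0552, over 13 alternatives from 0.00387 to 0.0738). ABHD5, the activator of PNPLA2, stood at 0.07 ± 0.14 (edgeR adjusted p = 0.783), and LIPE at -0.33 ± 0.25 (edgeR adjusted p = 0.402).

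**Figure D4:**
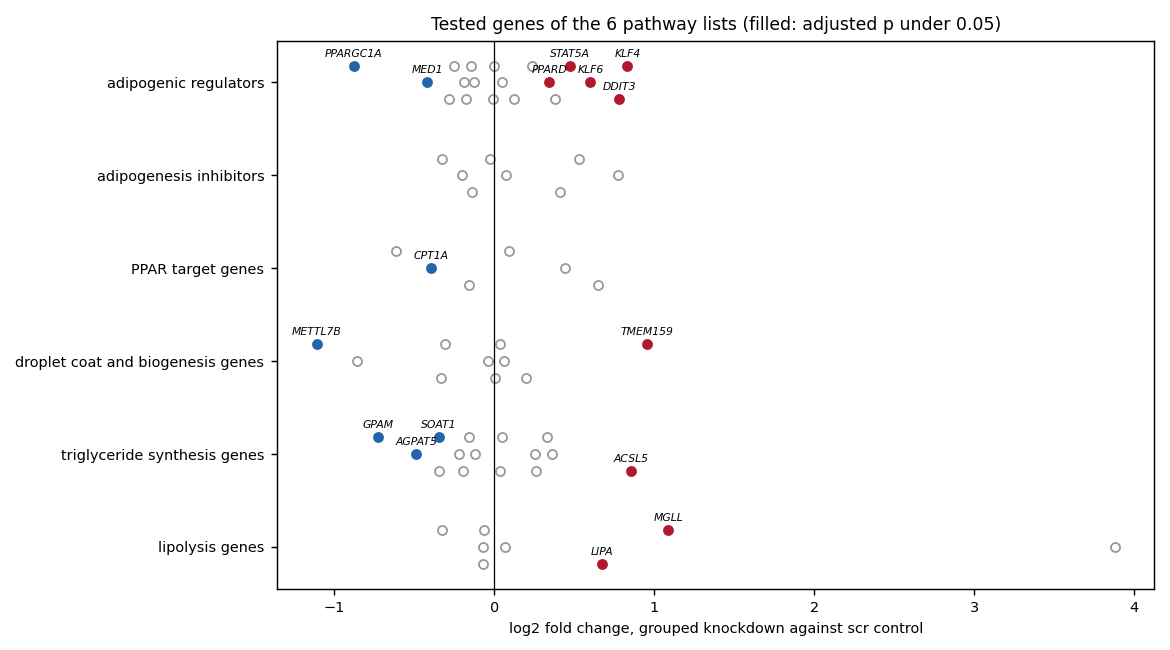
Grouped log2 fold change (x axis, 6 knockdown against 3 scr control libraries) of the tested genes of 6 lists (y axis), each point a gene. Filled red points passed as higher and filled blue points as lower at an adjusted p under 0.05, with their symbols, and open grey points did not pass. MGLL at 1.09 and TMEM159 at 0.96 lie farthest right of the named genes, and METTL7B at -1.11 farthest left; the open point at 3.88 is G0S2, which has few counts.

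Markers of other cells were watched beside these values. Of 7 stromal and blood cell markers 4 were tested, and their summed level was 4.73 to 6.99 CPM in the scr control, 6.78 to 11.1 with shMPZL3 #1 and 11.0 to 17.9 with shMPZL3 #2. The sum came mostly from the matrix proteoglycan LUM, which rose with the grouped knockdown (1.15 ± 0.29, edgeR adjusted p = 0.02), a call that was lost when any of the 3 scr libraries was left out (edgeR adjusted p = 0.0554, 0.0997 and 0.0745). With shMPZL3 #2 LUM rose by 1.45 ± 0.25 (edgeR adjusted p = 0.000736) and passed in all 15 alternatives, and with shMPZL3 #1 it rose by 0.79 ± 0.25 (edgeR adjusted p = 0.0246) and passed in 11 of 15. DCN had 0 counts and PDGFRA 4 in all libraries, and THY1, PECAM1 and PTPRC did not pass (0.55 ± 0.49, 0.58 ± 0.61 and 0.26 ± 0.63). The part of the marker sum in the changes of CEBPD, PLIN2 and LPIN1 was not tested. The ovarian carcinoma markers summed to 4699 to 4931 CPM in the scr control, 4852 to 5918 with shMPZL3 #1 and 4777 to 5981 with shMPZL3 #2, and 0 of 7 passed in the grouped edgeR test (1 higher by DESeq2, 2 higher and 1 lower at an unadjusted edgeR p under 0.05), with KRT7 at 0.33 ± 0.12, MUC16 at -0.41 ± 0.17 and PAX8 at 0.24 ± 0.10. With shMPZL3 #1, KRT7 (0.35 ± 0.12) and PAX8 (0.29 ± 0.10) rose and MUC16 fell (-0.61 ± 0.16, edgeR adjusted p = 0.00739). MUC16 passed in all 15 alternatives, and KRT7 and PAX8 in 10 of 15 each, losing their calls without any of the 3 scr libraries or without shMPZL3 #1 replicate 1 or 3. With shMPZL3 #2, 0 of 7 passed by edgeR or DESeq2, and 1 was higher at an unadjusted edgeR p under 0.05.

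Over the 9 libraries, the protein-coding genes whose log2 CPM followed PLIN2 most closely were the arrestin-like ARRDC4, MOB3C and the polyamine acetyltransferase SAT1, with Pearson's r of 0.979, 0.977 and 0.977. For CEBPA they were C17orf99, FBXL12 and CANT1, at 0.947, 0.936 and 0.927, and C17orf99 held 82 counts in all. These are descriptions over 13650 genes compared, and the libraries share their groups.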

How the data were processed

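RNA-seq of 9 OVCAR4 libraries was analysed from the gene table deposited by the authors, which holds raw counts of reads per gene. Per the labels, reads were aligned with HISAT2 2.0.5 to hg38 and counted with featureCounts 1.5.0-p3. The kit was not directional, so reads from overlapping antisense genes cannot be told apart by strand. How they were assigned is not given in the sources used here. Besides the overlaps named above, antisense genes shared 17.8% of the exon bases of PLIN3 and 10.4% of those of PNPLA2. Coordinates and lengths are those of the table, and 58724 of its 58735 genes have the same span in GENCODE v29.

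Counts were scaled by TMM and filtered with filterByExpr (16928 genes kept), and tested with edgeR 4.0.16 (R 4.3.3) by quasi-likelihood with Benjamini-Hochberg adjustment over all genes tested, at 0.05. The grouped comparison used a fit of knockdown and control, and the others a fit of 3 groups. SE is the log2 fold change divided by the root of F. For log2 CPM a prior count of 2 was added. The permutation tests were exact and two-sided, and 3 against 3 libraries cannot go below p = 0.1. Replicate pairs differed beyond counting noise (chi-square per gene 3.08 to 23.2). Tests were checked on simulated counts. Intervals cover counting error only, and p-values the spread between cultures of a single line.

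All 10 members and MPZL3 were named. In the lists, genes that passed in the grouped comparison and the 3 largest changes were named, with others added after their values were seen. The values of 1 gene that this rule names are not reported here. The genes most like PLIN2 and CEBPA were ranked by Pearson's r. Members and lists were chosen with earlier results of these data known. DESeq2 1.42.0, other scalings, filters, a replicate block and leaving out each library were tried. Promoters came from RefSeq.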

Additional observations from a re-analysis of the deposited data

Results flagged for a closer look

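Of the members, 3 differed between the shRNAs by the test of the difference itself, given as shMPZL3 #2 minus shMPZL3 #1: LPIN1 (-0.67), CEBPD (0.58) and DGAT2 (0.71). Of the other named genes, MPZL3 (1.28), TRIB3 (1.34), LPL (2.31) and G0S2 (3.30) were higher with shMPZL3 #2, and KLF4 (-0.69), KLF2 (-1.06) and LIPA (-0.52) were lower. Among the 6 knockdown libraries, CEBPA had a sample far from the others. Replicate 2 of shMPZL3 #2 lay apart from its nearest neighbour by 0.694 of the whole range of log2 CPM; chance flags about 1 in 20 groups in this way.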

How the results depend on the processing

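Each member's fold change was recomputed under up to 16 alternatives, and 495 of 549 values kept their direction and their side of the threshold. The fall of LPIN1 and the rise of CEBPD with shMPZL3 #2, and the rise of PLIN2 with each shRNA, passed in all of theirs. Taking the mean of both shRNAs in the 3-group fit gave 1 member lower, 2479 genes higher, 2198 lower and 16 pathway genes higher in the grouped comparison, and applying no filter also gave 1 member lower; that member was LPIN1. Upper-quartile scaling left 1 member higher with shMPZL3 #2 than with #1, and no filter gave 8 pathway genes lower there.

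Leaving out each library in turn gave 0 to 3 members, 453 to 1737 genes and 3 to 11 pathway genes higher, and 172 to 1450 genes and 2 to 8 pathway genes lower, in the grouped comparison. With shMPZL3 #1 the ranges were 1 to 4 members and 9 to 14 pathway genes higher, and 0 to 1 members and 1689 to 2824 genes lower. With shMPZL3 #2 they were 910 to 1732 genes and 7 to 12 pathway genes higher, and 354 to 1388 genes and 2 to 9 pathway genes lower. Between the shRNAs they were 1 to 2 members, 667 to 1521 genes and 3 to 8 pathway genes higher, and 798 to 1432 genes and 1 to 5 pathway genes lower. Over all the alternatives together, values near 0 changed sign: CEBPB (grouped -0.041 to 0.073, shMPZL3 #1 -0.17 to 0.0080), DGAT2 (grouped -0.19 to 0.039), DGAT1 (shMPZL3 #2 -0.036 to 0.072), TRIB3 (shMPZL3 #1 -0.12 to 0.028), KLF2 (shMPZL3 #2 -0.35 to 0.14) and, between the shRNAs, CEBPA (-0.45 to 0.0046), PLIN2 (-0.0036 to 0.25), PLIN3 (-0.0075 to 0.092) and PNPLA2 (-0.15 to 0.086). The cause was not tested.

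Libraries share replicate numbers across groups. Of 9 same-numbered pairs, 3 had deviations correlated at over 0.1 (correlations -0.00143 to 0.218), and 13 of 18 best matches had the same number. The main fits did not take the numbers as pairs, and whether same-numbered libraries belong together was not tested. A replicate block gave 2 members lower with shMPZL3 #1 (DGAT1 and DGAT2), 1597 genes and 10 pathway genes lower with shMPZL3 #2, and 2015 genes higher and 10 pathway genes lower between the shRNAs. PPARG and G0S2, with 3 and 51 counts in all 9 libraries, are limited by depth.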

Other observations

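Of the 65 tested pathway genes, the direct comparison of the shRNAs called 8 with a higher level under #2 and 4 with a lower one, beside 7.56% of all genes in each direction. Several regulators of the program were among them, named after their values were seen. KLF5, which acts downstream of CEBPB and CEBPD in early fat cell formation, differed by 0.59 ± 0.09 (edgeR adjusted p = 0.000588), the C/EBP relative CEBPG by 0.38 ± 0.11 (edgeR adjusted p = 0.0237), the glucocorticoid receptor NR3C1 by 0.47 ± 0.13 (edgeR adjusted p = 0.0199) and the lipogenic factor SREBF1 by 0.49 ± 0.16 (edgeR adjusted p = 0.0418). Mean normalized counts of KLF5 were 1970 in the scr control, 1443 with #1 and 2164 with #2. In the same order, those of CEBPG were 1445, 1632 and 2129, and those of NR3C1 1099, 1004 and 1390. For SREBF1 they were 2433, 1826 and 2574, and its libraries with #1 ran from 1460 to 2490, into the control range. Values of these genes under the alternatives are not given. RXRA, the obligate partner of PPAR receptors, was lower by -0.46 ± 0.14 (edgeR adjusted p = 0.0339). The droplet protein and PNPLA2 inhibitor HILPDA differed by 0.64 ± 0.16 (edgeR adjusted p = 0.011). Of the 15 tested triglyceride synthesis genes on the list, 0 passed between the shRNAs by edgeR or DESeq2, and 3 were lower at an unadjusted edgeR p under 0.05.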
